A study of Mus musculus with 31 samples.

Results

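A set of pseudogenes and related genes with counts near 0 in some libraries and far above 0 in others was examined in all 31 libraries. They are 9 of 55401 genes in the count tables, namely Gm2427, Gm15459, Gm7993, Gm13872, Gm13394, Gm12751, Gm6166, Rps18-ps5 and Mrpl27-ps. The members were picked by their counts in the APP/PS1 libraries, so their levels in those libraries and the contrasts among them are given as a description without a test. All mice were 13 months old. APP/PS1 mice (A+) carry APPswe and PS1dE9 as a single transgene under the mouse prion promoter on a C57BL/6J background, A- mice lack it, and P ki/ki mice are homozygous for PLCγ2-P522R, a variant made by CRISPR/Cas9 editing in C57BL/6J, whereas P wt/wt mice have the unedited gene. Females are called A- WT (A-/P wt/wt), A+ WT (A+/P wt/wt) and A+ KI (A+/P ki/ki) here. Bulk temporo-occipital cortex came from 1 A- WT, 4 A+ WT and 4 A+ KI females. CD11b+ microglia, isolated with magnetic beads from the dissociated brain, came from 7 A- WT, 4 A+ WT and 4 A+ KI females and from 3 WT and 4 KI males without the transgene. Each library is from 1 mouse, named here by its number in the labels.

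Processed pseudogenes arise when a messenger RNA is copied back into DNA and inserted elsewhere in the genome, which leaves an intronless copy of the parent gene. Unprocessed pseudogenes arise from a duplicated stretch of genomic DNA. Most copies are not known to make a protein, and because they resemble the parent, a short read from one gene can be placed on the other.

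The label of the set held for most but not all members. In Gencode M21, an annotation of GRCm38, 7 members were annotated as pseudogenes, of which 6 were processed and 1, Gm2427, was unprocessed. Rps18-ps5 is a protein-coding gene there and a pseudogene in RefSeq, and Gm2427 is protein-coding in RefSeq. Gm13872 is no pseudogene but a long non-coding RNA (chr2:102737907-102746760, minus strand) that lies antisense within Slc1a2, the main glutamate transporter of astrocytes, and no parent was found for it. The transcripts of the other 8 members were aligned to all M21 transcripts, and the protein-coding gene with the best alignment was taken as the parent.

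Gm15459 (chr5:5781615-5783555, minus strand) was 99.74% identical over 1941 bases to Hspa8, a constitutive heat shock protein (chr9:40800984-40810087). Gm13394 (chr2:28933610-28934609, minus strand), which lies within Cfap77, was 99.9% identical over 1000 bases to the glycolytic enzyme gene Gapdh (chr6:125161715-125166467). Counting the parent, Gm13394 was at least 90% identical over at least 80% of its length to 146 other genes, against 1 to 9 for the members with another parent. Gm12751 (chr4:34354043-34354423, plus strand) was identical over all of its 381 bases to Polr1d, a subunit of RNA polymerases I and III (chr5:147077050-147111597). Gm6166 (chr9:57483963-57484371, plus strand) was 98.29% identical over 409 bases to the fatty acid-binding protein gene Fabp5 (chr3:10012548-10016607). Rps18-ps5 (chr13:28257528-28258134, plus strand) was 99.26% identical over 540 bases to Rps18, a protein of the small ribosomal subunit (chr17:33951999-33956001). Mrpl27-ps (chr18:15011246-15011692, plus strand) was 98.88% identical over 447 bases to Mrpl27, a protein of the mitochondrial ribosome (chr11:94653767-94660089). Gm7993 (chr5:95974240-95975623, plus strand) was the most diverged of the set, with 95.75% identity over 1388 aligned positions to Odc1, the first enzyme of polyamine synthesis (chr12:17544794-17551505). Gm2427 (chr1:85501090-85514604, plus strand) was 98.75% identical over 881 bases to Sp140, a nuclear body protein of leukocytes (chr1:85600378-85645037), which starts 0.0858 Mb away.

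The reads were 150 bases long and only uniquely mapped reads were counted. A read from a stretch of this length that holds no difference can therefore not be assigned to one gene of a pair unless its mate or a splice junction does so. Stretches of 120 bases from the coding part of each parent are shown for 6 pairs because they give the differences on which the assignment of a read rests, and the capitals mark the bases that differ between member and parent. Each is written 5′ to 3′ on the strand of the transcript, from Gencode M21.

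The stretch of Gm15459 (chr5:5783383-5783502, GRCm38, minus strand) holds 1 of the 5 differences from Hspa8, G114A, where the parent's base comes first and positions are counted from 1 at the 5′ end of the member's transcript. The longest stretch without a difference was 672 bases.
Gm15459: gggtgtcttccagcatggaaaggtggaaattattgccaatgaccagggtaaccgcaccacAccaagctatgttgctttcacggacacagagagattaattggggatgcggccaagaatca
Hspa8: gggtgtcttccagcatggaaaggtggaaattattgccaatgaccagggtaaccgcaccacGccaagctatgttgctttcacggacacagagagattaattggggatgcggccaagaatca

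Gm13394 (chr2:28934205-28934324, minus strand) had 1 difference from Gapdh in its whole length, A346C, and its longest identical stretch was 654 bases.
Gm13394: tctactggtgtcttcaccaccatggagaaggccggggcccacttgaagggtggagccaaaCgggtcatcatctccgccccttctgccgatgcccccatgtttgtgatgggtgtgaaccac
Gapdh: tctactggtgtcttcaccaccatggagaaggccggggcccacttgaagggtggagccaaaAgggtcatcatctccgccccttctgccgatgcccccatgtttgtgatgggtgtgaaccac

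Gm12751 (chr4:34354043-34354162, plus strand) had 0 differences from Polr1d, so that the same line stands for both genes and has no capitals.
Gm12751 and Polr1d: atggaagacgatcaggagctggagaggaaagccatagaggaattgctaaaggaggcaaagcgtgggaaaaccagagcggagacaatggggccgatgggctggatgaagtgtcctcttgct

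Rps18-ps5 (chr13:28257636-28257755, plus strand) had 4 differences from Rps18 in the aligned part, of which T119A is in the stretch shown. The longest identical stretch was 165 bases.
Rps18-ps5: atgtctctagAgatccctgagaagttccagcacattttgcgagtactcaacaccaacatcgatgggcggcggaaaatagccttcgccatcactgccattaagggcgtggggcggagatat
Rps18: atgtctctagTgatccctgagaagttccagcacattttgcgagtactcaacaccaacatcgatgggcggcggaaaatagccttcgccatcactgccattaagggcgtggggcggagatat

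Gm6166 (chr9:57484128-57484247, plus strand) differed from Fabp5 also by 2 inserted bases, and its longest identical stretch was 179 bases.
Gm6166: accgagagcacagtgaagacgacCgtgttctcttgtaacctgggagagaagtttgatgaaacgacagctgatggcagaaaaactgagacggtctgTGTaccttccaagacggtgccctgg
Fabp5: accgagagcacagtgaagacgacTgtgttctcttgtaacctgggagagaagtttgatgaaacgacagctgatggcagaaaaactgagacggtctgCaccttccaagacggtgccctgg

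Gm2427 is spliced, so its stretch has no single genomic interval. It holds 5 of the 11 differences from Sp140, namely G283T, A354G, G372A, T381A and T382C, and the longest identical stretch was 274 bases.
Gm2427: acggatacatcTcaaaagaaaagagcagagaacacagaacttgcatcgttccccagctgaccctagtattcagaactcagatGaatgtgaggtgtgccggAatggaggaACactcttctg
Sp140: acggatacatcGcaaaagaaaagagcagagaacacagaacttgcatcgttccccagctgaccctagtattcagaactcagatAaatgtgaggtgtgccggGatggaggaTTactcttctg

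The depth of the libraries was 25.2 to 43.1 M counts in cortex, 18.9 to 25.1 M in CD11b+ microglia of females and 16.2 to 19.9 M in those of males. Levels are given as CPM (counts of a gene per 1 M counts of its library) with TMM scaling within each table, and a count of 3, taken as the limit that a count of 0 allows, corresponded to 0.0704 to 0.12 CPM in cortex and 0.107 to 0.198 CPM in microglia. This limit covers counting error only. Levels of CPM are not corrected for gene length, so they are compared between libraries and not between genes. Within CD11b+ females, the A- WT libraries carry another batch tag than the A+ libraries, and males carry yet another, so that the transgene, or the sex, and the batch cannot be told apart. In bulk samples, fewer cells of a type and less RNA per cell cannot be told apart. The summed levels of 7 microglial markers were 359 to 820 CPM in cortex, 10716 to 21028 CPM in CD11b+ females and 14653 to 26645 CPM in CD11b+ males, and those of 5 oligodendrocyte markers ranged from 6554 to 71997 CPM in CD11b+ females. Plcg2 ranged from 8.02 to 9.65 CPM in A+ WT and from 7.82 to 9.32 CPM in A+ KI cortex, which is no check of the edit, since RNA counts do not show the P522R change. App, which the transgene adds to, was 1913 CPM in A- WT and 3255 to 3931 CPM in A+ cortex. Mouse number 236 is given for an A+ WT cortex library and for an A- WT CD11b+ library, 2 genotypes that exclude each other, and neither label was changed. In these libraries 5 and 0 members were high.

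To describe how close to all-or-none the levels were, a library was called low for a gene at up to 5% of the gene's highest CPM in that table, high at 25% or more, and intermediate between. A gene had a near all-or-none pattern if its highest level was at least 1 CPM, at least 2 libraries were low, at least 2 were high and 0 were intermediate. Gm7993, Gm13394, Gm12751 and Mrpl27-ps met this in cortex, Gm7993, Gm13394 and Mrpl27-ps in CD11b+ females, and Gm7993 and Mrpl27-ps in CD11b+ males. Among all genes that reached 1 CPM, the pattern was found in 0.131% of 16024 genes in cortex, 0.194% of 16974 in CD11b+ females and 0.0563% of 15982 in CD11b+ males. Since the members were chosen for such a pattern, their count is not set against these shares. Of the 21 genes with the pattern in cortex, 10 were annotated pseudogenes and 11 were copies of a protein-coding gene with at least 95% identity over at least 90% of their length. In CD11b+ females 12 of 33 were annotated pseudogenes, and in males 4 of 9 were. Gm13872 stayed under 1 CPM in all 3 tables, and the other 8 members reached 1 CPM in cortex and in CD11b+ females and 6 did so in males.

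**Figure D1:**
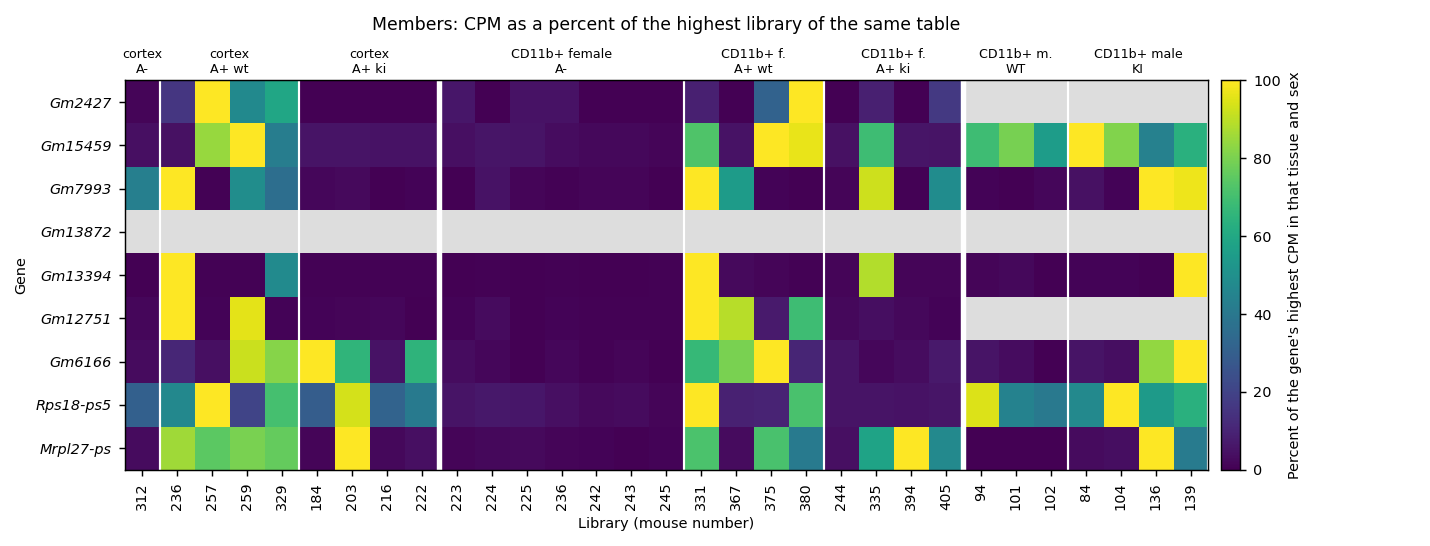
Level of each of the 9 members (rows) in each of the 31 libraries (columns, by group and mouse number), as a percentage of the gene's highest CPM in its table, with grey where the highest level was under 1 CPM. In CD11b+ females no member was high in any of the 7 A- WT libraries, whereas 3 to 7 were high in each A+ WT library.

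The number of the 8 expressed members that were high was 2 in A- WT cortex, 4 to 7 in A+ WT cortex and 1 to 3 in A+ KI cortex. Among CD11b+ females it was 0 in all 7 A- WT libraries, 3 to 7 in A+ WT and 0 to 4 in A+ KI. The libraries with the most high members were mouse 329 in cortex and mouse 331 in CD11b+ microglia, with 7 each, and both are A+ WT. In males, mice 136 and 139 of the KI group had 5 and 6 high members of 6, and the other 5 males had 2 each, Gm15459 and Rps18-ps5, which were high in all 7 males.

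Gm15459, the copy of Hspa8, was high in 3 of the 9 cortex libraries. In A+ WT cortex it was 9.42 CPM in mouse 236, 172 CPM in mouse 257, 204 CPM in mouse 259 and 86.4 CPM in mouse 329. The 4 A+ KI libraries were at 10.9, 10.8, 9.62 and 9.8 CPM, and the A- WT library at 8.63 CPM. Thus 3 of 4 A+ WT libraries stood far above all others and the remaining one lay within the others' range, so the A+ groups overlapped (log2FC of A+ KI over A+ WT -3.52, SE 0.63). In CD11b+ A+ WT microglia the levels were 84 CPM in mouse 331, 5.68 CPM in mouse 367, 116 CPM in mouse 375 and 112 CPM in mouse 380. In the A+ KI group, mouse 335 was at 79.7 CPM and mice 244, 394 and 405 were at 5.05, 6.39 and 6.11 CPM. High and low libraries thus occurred in both groups (log2FC -1.70, SE 1.13, and -3.74 without mouse 335). In the 7 A- WT females the level ranged from 1.67 to 6.51 CPM (median 4.02).

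Hspa8 itself was lower in the cortex libraries in which Gm15459 was high. It was 1389, 1468 and 1408 CPM in mice 257, 259 and 329, 1660.0 CPM in mouse 236, 1861 CPM in the A- WT library and 1791 to 1874 CPM in the A+ KI libraries. In CD11b+ females Hspa8 was 521, 555, 926 and 847 CPM in mice 375, 380, 331 and 335, where Gm15459 was high. It was 927 to 1240 CPM in the other 4 A+ libraries and 552 to 1348 CPM in A- WT, so high and low libraries overlapped there. The share of Gm15459 in the sum of both genes was 11% in mouse 257, 12.2% in mouse 259 and 5.78% in mouse 329, and it was 0.461 to 0.585% in the other 6 cortex libraries. In CD11b+ microglia the share was 18.2% in mouse 375, 16.7% in mouse 380, 8.32% in mouse 331 and 8.6% in mouse 335. In the other 4 A+ libraries it was 0.513 to 0.598%, in the 7 A- WT females 0.251 to 0.55%, and in the 7 males 0.289 to 0.404%. In each tissue the shares thus fell into a group under 1%, an intermediate group and a highest group. No test was made between libraries that differ in these values. Gm15459 overlaps Gm26825 on the opposite strand, and with counting irrespective of strand their reads cannot be told apart.

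Gm13394, the copy of Gapdh, was at 120.1 CPM in mouse 236 and 57.4 CPM in mouse 329 of the A+ WT cortex and at 0.56 and 0.532 CPM in mice 257 and 259. All A+ KI libraries were at 0.508 to 0.724 CPM and the A- WT library at 0.455 CPM. It was thus high in 2 of 9 cortex libraries, and not in the ones with the highest Gm15459. In CD11b+ females it was high in mouse 331 of the A+ WT group (21.9 CPM) and in mouse 335 of the A+ KI group (19.4 CPM), and it was at most 0.551 CPM in the other 13 libraries. Its share in the sum with Gapdh was 6.4% and 3.17% in the cortex of mice 236 and 329, 2.64% and 2.35% in mice 331 and 335, and 2.7% in the male KI mouse 139. Gapdh was 1754 CPM in both cortex libraries with high Gm13394 and 2008 to 2478 CPM in the other 7. The cortex log2FC of A+ KI over A+ WT was -6.23 (SE 1.40) and that in microglia -0.18 (SE 1.82).

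**Figure D2:**
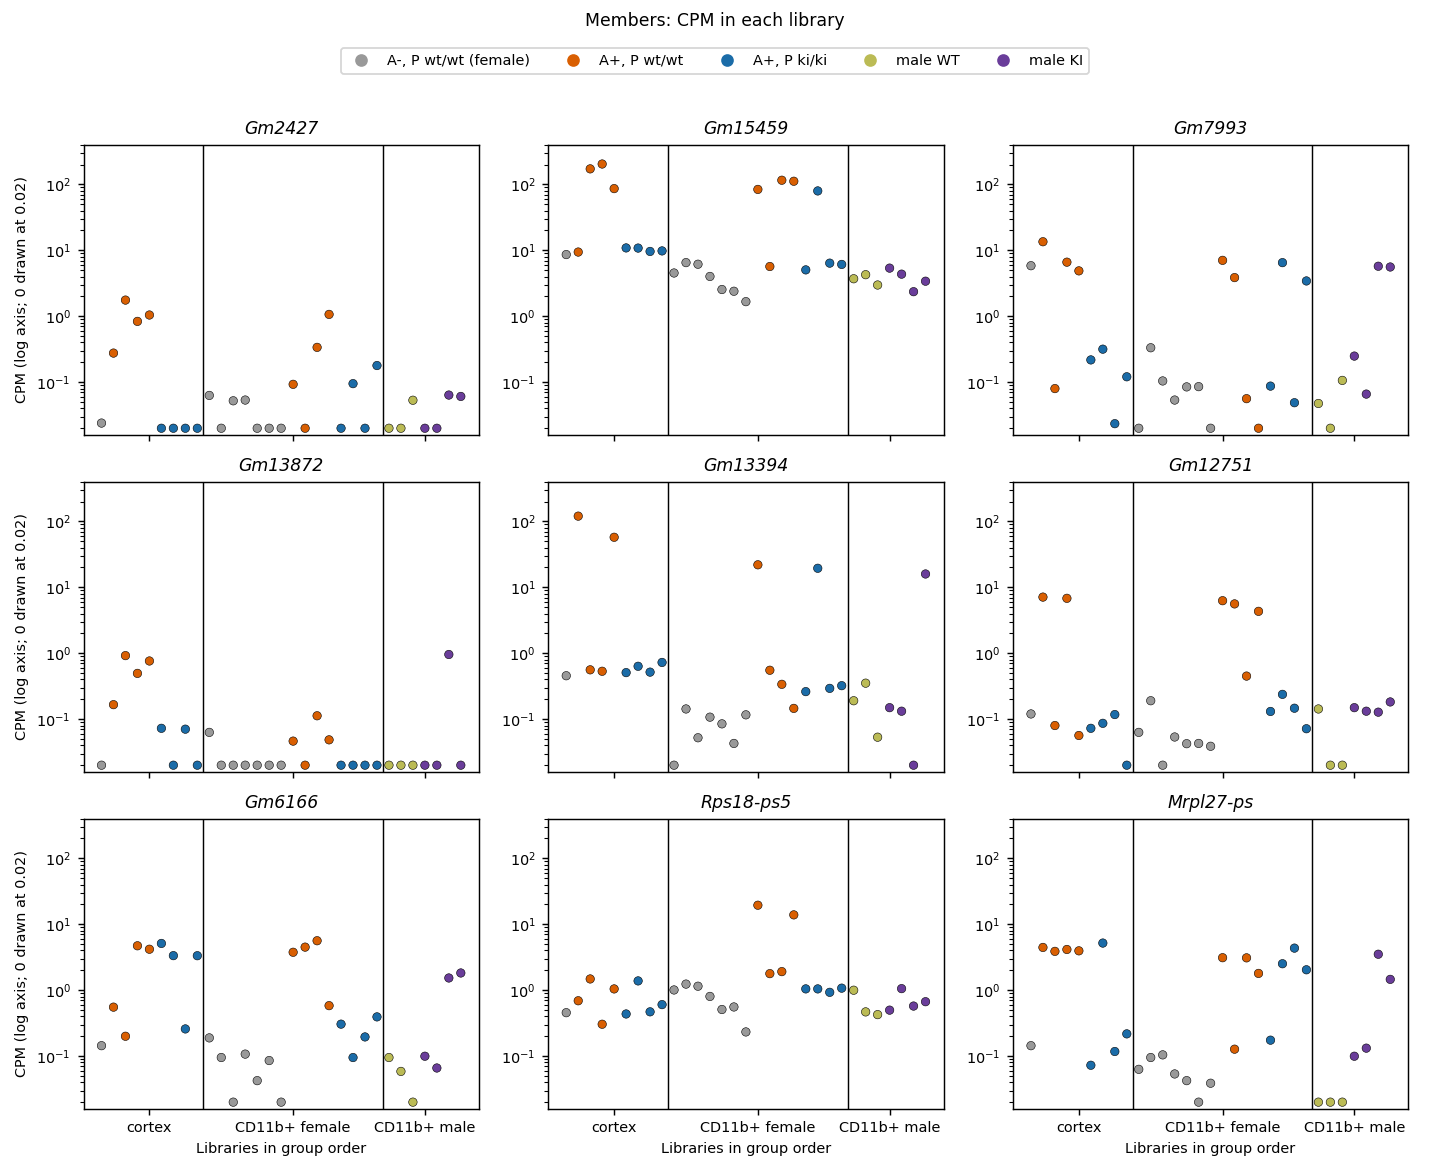
CPM of each member per library on a log axis, by group, with 1 point per library and a level of 0 drawn at 0.02. In most panels the points fall into a lower and an upper cluster, and in Gm15459 of CD11b+ females the upper cluster holds 3 A+ WT libraries and 1 A+ KI library.

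Gm7993, the copy of Odc1, was high in the A- WT cortex library as well (5.85 CPM). In A+ WT cortex it was 13.5 CPM in mouse 236, 0.0799 CPM in mouse 257, 6.61 CPM in mouse 259 and 4.88 CPM in mouse 329, and in A+ KI cortex it was 0.218, 0.317, 0.0235 and 0.121 CPM. The share of Gm7993 in the sum with Odc1 was 25.9% in mouse 236 and 9.92, 10.7 and 8.89% in mice 312, 259 and 329, and at most 0.504% in the other 5. In CD11b+ females it was 7.05 and 3.86 CPM in mice 331 and 367 of the A+ WT group, 0.0562 and 0 CPM in mice 375 and 380, and 6.51 and 3.43 CPM in mice 335 and 405 of the A+ KI group, with 0.0871 and 0.0488 CPM in mice 244 and 394. The A- WT females were at 0 to 0.333 CPM (median 0.0848). The A+ groups thus each had 2 high and 2 low libraries in microglia (log2FC -0.12, SE 1.59), whereas in cortex 3 of 4 A+ WT and 0 of 4 A+ KI libraries were high (log2FC -5.28, SE 0.97). Odc1 was 38.7 CPM in mouse 236, the lowest of the cortex libraries, and 50.0 to 64.8 CPM in the others.

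Mrpl27-ps was high in all 4 A+ WT cortex libraries, at 4.45, 3.88, 4.14 and 3.95 CPM. Of the A+ KI libraries, mouse 203 was at 5.18 CPM and mice 184, 216 and 222 were at 0.0725, 0.117 and 0.217 CPM. The A- WT library was at 0.144 CPM. The log2FC of A+ KI over A+ WT was -1.57 (SE 0.85) and became -4.82 without mouse 203. In CD11b+ females no clear direction was seen, and the difference from cortex was not tested. The level was 3.11, 0.127, 3.09 and 1.79 CPM in A+ WT mice 331, 367, 375 and 380 and 0.174, 2.52, 4.34 and 2.04 CPM in A+ KI mice 244, 335, 394 and 405, so each group had 3 high libraries (log2FC 0.17, SE 0.94). The 7 A- WT females were at 0 to 0.104 CPM (median 0.0536). The share in the sum with Mrpl27 was 33.7% in mouse 394, 13.1 to 19.4% in the other 5 high libraries and at most 1.16% in the remaining 9. Mrpl27 was 8.54 CPM in mouse 394, lower than in any other A+ female (11.4 to 15 CPM).

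Gm12751, which cannot be told from Polr1d by sequence within its own length, was high in 2 of 9 cortex libraries, mouse 236 at 7.1 CPM and mouse 259 at 6.8 CPM, both A+ WT. The other 7 were at 0 to 0.12 CPM. Polr1d was 31.3 and 36.6 CPM in cortex of mice 236 and 259 and 31.9 to 44.1 CPM in the other 7. In CD11b+ females the A+ WT mice 331, 367, 375 and 380 were at 6.26, 5.6, 0.45 and 4.32 CPM, and the A+ KI mice 244, 335, 394 and 405 at 0.131, 0.238, 0.146 and 0.0715 CPM. The groups did not overlap, but the lowest A+ WT level of 0.45 CPM was close to the highest A+ KI level of 0.238 CPM (log2FC -4.80, SE 0.81). The A- WT females were at 0 to 0.19 CPM (median 0.0428), and the log2FC of A+ WT over A- WT was 5.95 (SE 0.69).

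Gm6166, the copy of Fabp5, was high in both A+ groups of the cortex. It was 0.552, 0.2, 4.71 and 4.18 CPM in A+ WT mice 236, 257, 259 and 329 and 5.11, 3.34, 0.258 and 3.33 CPM in A+ KI mice 184, 203, 216 and 222. The log2FC was 0.29 (SE 0.78). In CD11b+ females it was 3.76, 4.5, 5.62 and 0.582 CPM in A+ WT mice 331, 367, 375 and 380 and 0.305, 0.095, 0.195 and 0.393 CPM in the A+ KI mice, which did not overlap (log2FC -3.81, SE 0.71). The A- WT females were at 0 to 0.189 CPM (median 0.0855). Fabp5 was 7.98 to 30.6 CPM in A- WT and 53.4 to 108 CPM in A+ females, so that the level of the parent differed between these groups too. As a share of the sum with Fabp5, Gm6166 was 6.57, 7.7 and 7.09% in mice 331, 367 and 375 and at most 0.752% in the other 12 females.

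Rps18-ps5 had no low library in cortex, at 0.691, 1.48, 0.304 and 1.04 CPM in A+ WT mice 236, 257, 259 and 329 and 0.435, 1.38, 0.469 and 0.604 CPM in A+ KI mice 184, 203, 216 and 222 (log2FC -0.28, SE 0.47). In CD11b+ females, mice 331 and 380 of the A+ WT group were at 19.4 and 13.9 CPM, and mice 367 and 375 at 1.78 and 1.91 CPM. The A+ KI mice were at 1.05, 1.05, 0.927 and 1.07 CPM, so that the groups did not overlap (log2FC -3.17, SE 0.81), and the A- WT mice were at 0.232 to 1.24 CPM (median 0.803). The share in the sum with Rps18 was 4.45 and 4.28% in mice 331 and 380 and 0.398 and 0.457% in mice 367 and 375.

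Gm2427 and Gm13872 were the members with few counts. In A+ KI cortex Gm2427 had 0 counts in all 4 libraries, and the A+ WT mice 236, 257, 259 and 329 had 0.276, 1.76, 0.836 and 1.04 CPM. With 3 counts over the group as the limit for the A+ KI mice, the A+ WT mean was at least 47.8-fold higher. The A- WT cortex library, however, was at 0.024 CPM, in the range of the low libraries. The CD11b+ libraries were at 0.0928, 0, 0.337 and 1.07 CPM in A+ WT, at 0, 0.095, 0 and 0.179 CPM in A+ KI and at up to 0.0629 CPM in A- WT females. Gm2427 overlaps Gm16092 on the opposite strand, and since strand was not used in counting, their reads cannot be told apart. Gm13872 was 0.166, 0.919, 0.494 and 0.762 CPM in A+ WT and 0.0725, 0, 0.0704 and 0 CPM in A+ KI cortex. Its reads cannot be told from unspliced RNA of Slc1a2, which was 2082 to 2629 CPM in A+ WT and 2208 to 2957 CPM in A+ KI cortex. Its CD11b+ female libraries were at most 0.112 CPM.

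Members whose groups did not overlap differed between the contrasts. Of the 8 members that passed the count filter in cortex, Gm2427 and Gm13872 did not overlap between A+ KI and A+ WT (1 of them without mouse 259 or 329 when the filter was reapplied), and both were lower in A+ KI, as were 0.832% of all genes tested, while 1.88% did not overlap in either direction. In CD11b+ microglia Gm12751, Gm6166 and Rps18-ps5 of 7 members did not overlap and were lower in A+ KI, as were 0.992% of all genes, while 2.33% did not overlap in either direction. The members without overlap were not the same in cortex and microglia, a difference that was not tested. Between A+ WT and A- WT CD11b+ females, 4 of 5 members that passed did not overlap, namely Gm12751, Gm6166, Rps18-ps5 and Mrpl27-ps, all of them higher in A+ WT (2 without mouse 331 or 380 when the filter was reapplied), and 3.35% of all genes did not overlap in either direction (1.15% were lower in A+ WT). The choice of members used these libraries, the A+ WT libraries are shared by both comparisons of CD11b+ cells, and members that passed a filter on low values through 1 group had to differ, so nothing is read from these counts.

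**Figure D3:**
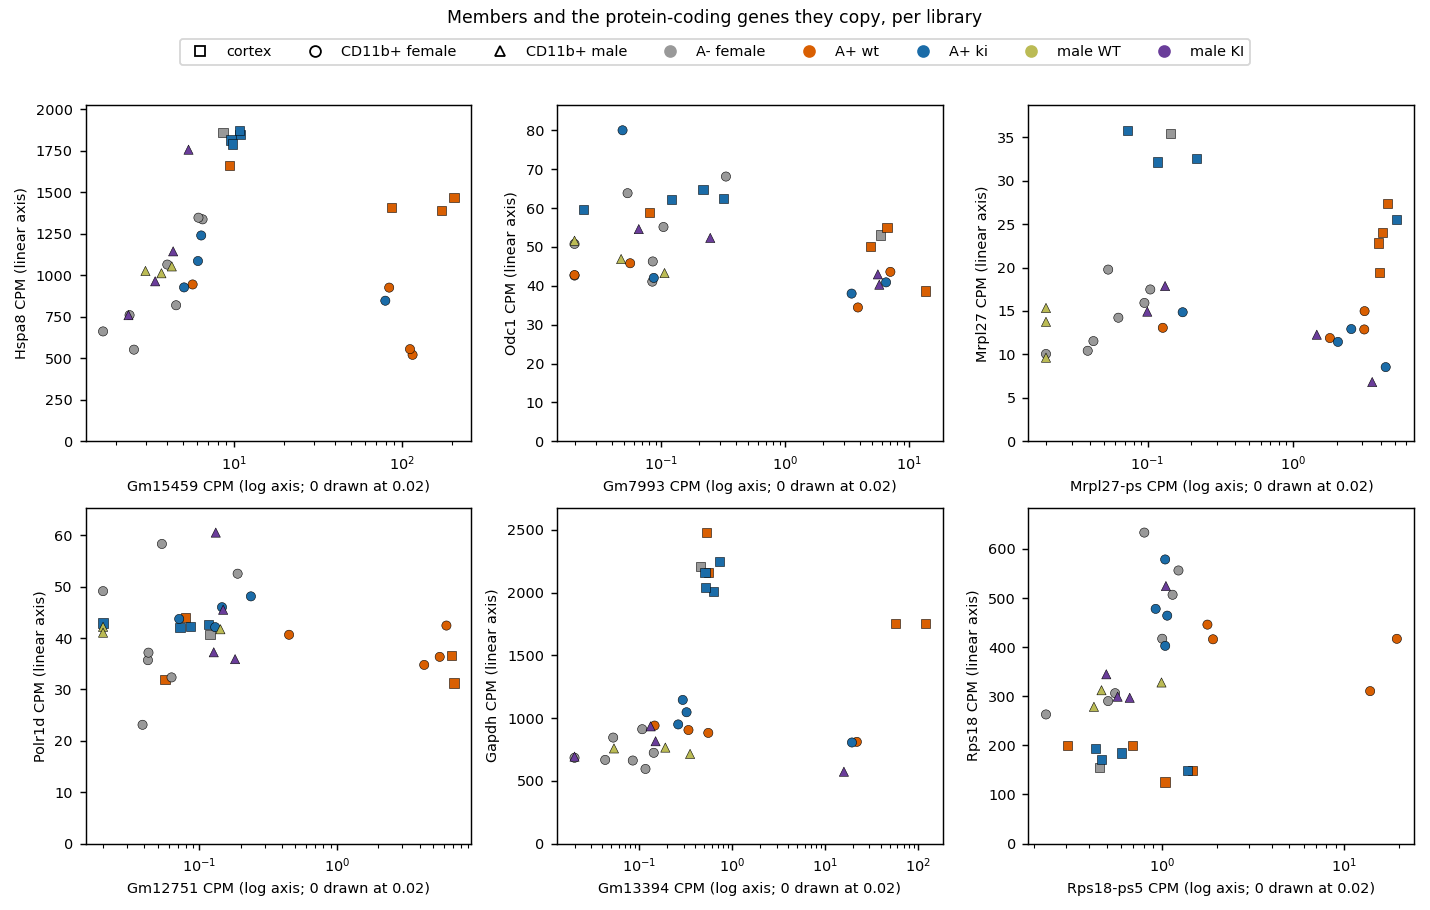
CPM of 6 members and CPM of the parent gene in each library, plotted against each other, by group. Gm7993 reached 25.9% of the sum with Odc1 in cortex of mouse 236, and Mrpl27-ps reached 34% of the sum with Mrpl27 in KI male 136.

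KI and WT males were the comparison that had no part in choosing the members. Only Gm15459 and Rps18-ps5, which were high in all 7 males, passed the filter of at least 10 counts in at least 3 libraries, and 0 of these 2 differed. A member near 0 in all but 2 males cannot pass this filter, so the count does not cover the members that varied among males. Gm15459 was 3.71, 4.27 and 2.98 CPM in WT and 5.37, 4.35, 2.36 and 3.4 CPM in KI males (log2FC 0.05, SE 0.28, adjusted p = 0.926, edgeR quasi-likelihood test with Benjamini-Hochberg adjustment over all genes). Rps18-ps5 was 0.998, 0.468 and 0.425 CPM in WT and 0.497, 1.06, 0.574 and 0.668 CPM in KI males (log2FC 0.07, SE 0.45, adjusted p = 0.926, same test). Over all 16373 genes tested, 16.4% were called, 11.1% as higher and 5.26% as lower in KI males. In this test 0 of the 2 members had an unadjusted p under 0.05, against 5452 of all genes. DESeq2's Wald test also called 0 of the 2 members. The WT and KI ranges overlapped for both, whereas they did not overlap for 29% of all genes (11.5% lower in KI).

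Gm7993, Mrpl27-ps and Gm6166 were high in KI mice 136 and 139 and in no WT male. Gm7993 was 5.74 and 5.59 CPM in these mice, 0.249 and 0.0659 CPM in KI mice 84 and 104, and 0.0475, 0 and 0.106 CPM in WT mice 94, 101 and 102. Mrpl27-ps was 3.51 and 1.46 CPM in mice 136 and 139, 0.0995 and 0.132 CPM in mice 84 and 104, and 0 in all 3 WT males. Gm6166 was 1.53 and 1.82 CPM in mice 136 and 139 and at most 0.0995 CPM in the other 5. Gm13394 was 15.9 CPM in mouse 139 and at most 0.351 CPM in the other 6, and Gm13872 was 0.956 CPM in mouse 136 and 0 in the other 6. Gm12751 and Gm2427 were at most 0.182 and 0.0638 CPM in all males. For Gm7993, Mrpl27-ps, Gm6166, Gm13394 and Gm13872 the KI group therefore had levels near 0 in some mice and above those of all WT males in others. When the count filter was dropped, 10.4% of 30652 genes were called, and 8.47% of the 30652 were called higher in KI males. EdgeR then called 4 members higher, Gm7993 (log2FC 5.60, adjusted p = 3.63e-05), Mrpl27-ps (7.52, adjusted p = 0.000119), Gm13394 (4.33, adjusted p = 0.00301) and Gm6166 (3.88, adjusted p = 0.00427). All 4 were high in mouse 139 and all but Gm13394 also in mouse 136, and without mouse 139 the log2FC of Gm13394 was -0.97 (adjusted p = 0.671).

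The share of members in the sum with their parents was also read in males 136 and 139. Gm7993 made up 12.5 and 11.5% of the sum with Odc1, which was 40.3 and 42.9 CPM there and 43.3 to 54.6 CPM in the other males. Mrpl27-ps made up 34% in mouse 136 and 10.6% in mouse 139, where Mrpl27 was 6.82 and 12.3 CPM. Gm6166 made up 10.1 and 12.8% of the sum with Fabp5, above the 6.57 to 7.7% in the CD11b+ A+ females in which it was high. Among the genes of the same families, 0 of the 2 tested Rps18 family members and 0 of 1 tested Mrpl27 family member differed between KI and WT males, and of 80 tested cytosolic ribosomal protein genes 0 were higher and 1 was lower. Of 74 tested mitochondrial ribosomal protein genes, 1 was higher and 0 were lower. Of 116 tested genes with a pseudogene symbol, 0 were higher and 5 lower, and their median log2FC was 0.11, against -0.00 over all genes tested, of which 11.1% were higher and 5.26% lower.

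As a check of linked loci, the genes around a member and its parent were read in the same libraries. The check was made where a member reached 1 CPM and had at least 2 low and 2 high libraries, which held for 7 members in cortex, 8 in CD11b+ females and 3 in males, since the calls of a member that is high throughout are shared by any gene of steady level. In these 18 cases, 0 genes within 5 Mb of the member had calls that differed from the member's in 2 or fewer libraries. Over all genes the share with such calls was 0 to 0.157%, and the windows held 27 to 199 genes. For Gm15459 in cortex and for Gm2427, Gm15459, Gm6166 and Rps18-ps5 in CD11b+ females, 0 genes anywhere had such calls. A count of 0 near the member is thus close to the share over all genes, and nothing is read from it. In CD11b+ females, Gm2427, Gm15459, Gm6166 and Rps18-ps5 were intermediate in 5, 4, 3 and 8 of 15 libraries. A gene with only low and high calls could therefore not come within 2 libraries of their calls, so the lack of one is no result for these members. The nearest expressed genes on either side (mean of 1 CPM or more) varied from 1.13-fold to 3.36-fold between the lowest and highest cortex library, except Prl beside Rps18-ps5, which encodes the hormone prolactin and ranged from 0.0235 to 6.48 CPM with calls equal to those of Rps18-ps5 in 3 of 9 libraries. For Gm15459, Steap2 was 11.6 to 20.2 CPM and Sri 55.4 to 62.6 CPM over the 9 libraries, and for Gm13394, Ddx31 was 6.4 to 8.12 CPM. For Gm12751, Cnr1 was 146 to 216 CPM and Akirin2 69.3 to 84.4 CPM. Neighbours of members in CD11b+ females varied from 1.74-fold for Akirin2 to 186-fold for Gm43841 beside Gm15459, and Steap1 on its other side varied 48.8-fold. The calls of these neighbours equalled the member's in 2 to 6 of 15 libraries. Neighbours in males varied from 1.29-fold for Ttf1 to 27.8-fold for Cxcl13 beside Gm7993.

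Near the parents, the same limit from intermediate calls held. A gene with calls that differed from the member's in 2 or fewer libraries was found for Gm12751 and for no other of the members searched. In cortex it was Baiap2l1, a gene of an actin-binding adaptor 2.72 Mb from Polr1d on chromosome 5, which was 1 of 101 genes in the window and 1 of 3 such genes among 16010 (0.0187%). Baiap2l1 was 13.4 and 26.7 CPM in mice 236 and 259, where Gm12751 was high, but also 30.9 CPM in A+ KI mouse 216, where Gm12751 was 0.117 CPM, and 0.748 to 1.53 CPM in the other 6. In CD11b+ females it was 13.8, 22.2 and 23.8 CPM in mice 331, 367 and 380, the libraries with high Gm12751, and 3.71 to 7.51 CPM in the other 12. The gene found in CD11b+ females was Gm8615, a processed pseudogene 2.04 Mb from Polr1d, 1 of 106 genes in the window and 1 of 4 among 16961 (0.0236%). Gm8615 was 11.9, 17.2, 6.63 and 8.83 CPM in the A+ WT mice 331, 367, 375 and 380, 8.93 CPM in A+ KI mouse 394 and at most 0.466 CPM in the other 10. It was thus high in the 3 libraries with high Gm12751 and in 2 more. In cortex it was 0.0552 and 4.37 CPM in mice 236 and 259, where Gm12751 was high, and 5.08, 10.5, 5.84 and 5.82 CPM in mice 257, 329, 203 and 216, where Gm12751 was low. Neither gene therefore had the calls of Gm12751 in every library of both tables.

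For Rps18-ps5, the genes near the parent Rps18 that stood out were chosen after the values were seen, although the rule for likeness also names them, for Gm12751. H2-Ea, which encodes the alpha chain of the MHC class II E molecule and is not expressed in mice of the H-2b haplotype such as C57BL/6J, lies 0.386 Mb from Rps18 on chromosome 17. In CD11b+ females H2-Ea was 44.2 and 44.5 CPM in mice 331 and 380, the libraries with high Rps18-ps5, and 0 to 0.76 CPM in the other 13. H2-Q1, an MHC class I gene 1.36 Mb from Rps18, was 9.46 and 10.8 CPM in the same libraries and at most 0.238 CPM in the other 13. In cortex, H2-Q1 was 0.52 to 1.32 CPM in all 9 libraries and lowest in mouse 257, and in males it was at most 0.351 CPM. In cortex H2-Ea was 0.919, 1.55 and 1.67 CPM in mice 257, 329 and 203 and at most 0.0241 CPM in the other 6. In those 3 libraries Rps18-ps5 made up 0.982, 0.825 and 0.917% of the sum with Rps18, against 0.152 to 0.345% in the other 6. H2-Ea was 0 in all males, where Rps18-ps5 made up 0.144 to 0.303%. The libraries in which H2-Ea was high were therefore those with the largest shares of Rps18-ps5, in cortex and in CD11b+ females. Among the other 13 females, mice 367 and 375 had the next largest shares, 0.398 and 0.457%, without high H2-Ea. The A+ KI females, in which H2-Ea reached 0.76 CPM, had shares of 0.18 to 0.259%. Gm10503 (chr17:30920338-30963220), also picked after the values were seen, did not keep to this match. It was high in the cortex of mice 257, 329 and 203 and in CD11b+ mice 331 and 380. But it was high in A+ KI mice 394 and 405 as well, where Rps18-ps5 made up only 0.194 and 0.231%. Whether the parent's haplotype has a part in the counts of Rps18-ps5 was not tested, since the files hold no variant calls.

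**Figure D4:**
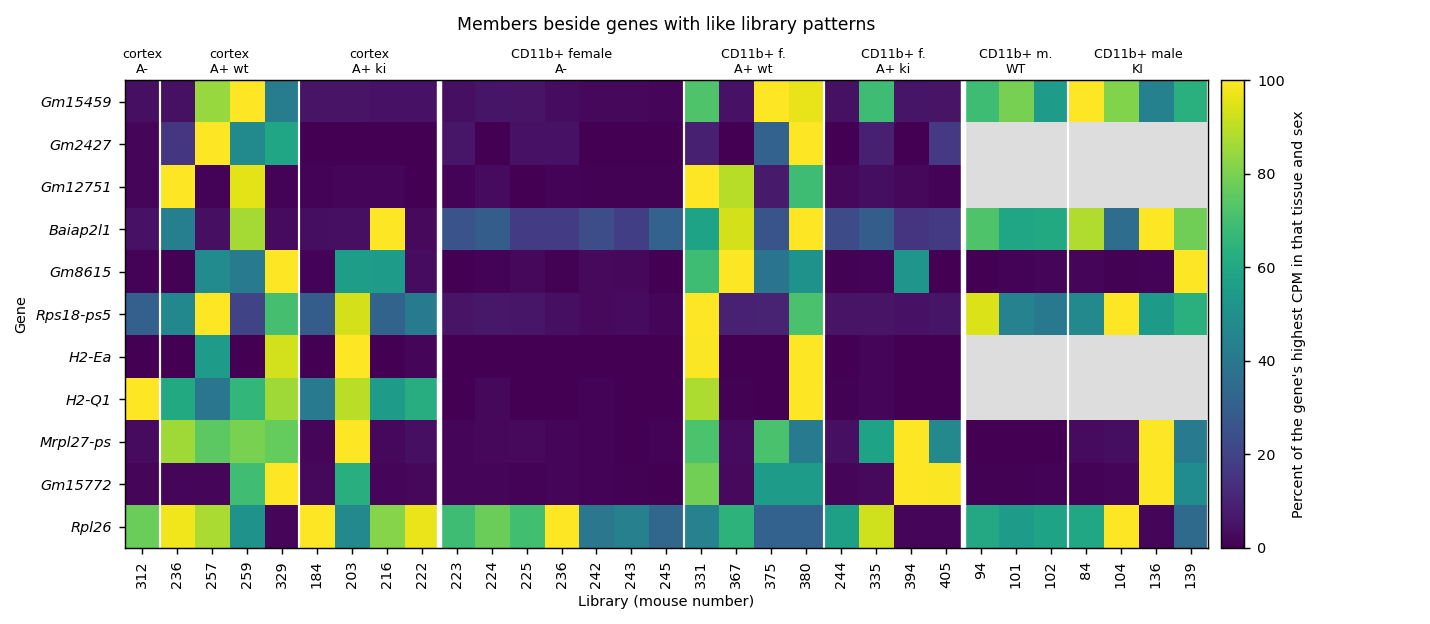
Level of Gm15459, Gm2427, Gm12751, Rps18-ps5 and Mrpl27-ps and of the genes named beside them, as a percentage of each gene's highest CPM in its table, in each library. H2-Ea and H2-Q1 are high in the same 2 CD11b+ female libraries as Rps18-ps5, and Gm15772 is high where Rpl26 is at its lowest.

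The genes most like a member in a table gave 54 entries, in which some genes recur. Of these entries, 27 had an alignment to a protein-coding gene, at any identity or length, and 5 lay on the member's own chromosome. Only members and genes with the near all-or-none pattern in a table were aligned, so 27 is not a count of all copies. Immunoglobulin genes were among the others, such as all 3 genes named for Gm13394 in cortex. In CD11b+ females the calls of Mrpl27-ps were the same in 14 of 15 libraries as those of Gm15772, Rps2-ps10 and Atp6v0c-ps2, which are copies of Rpl26, Rps2 and Atp6v0c. Rps2-ps10 lies on chromosome 18 like Mrpl27-ps, and the other two lie on chromosomes 5 and 6. Gm15772 was 173, 121 and 122 CPM in A+ WT mice 331, 375 and 380 and 219.9 and 218 CPM in A+ KI mice 394 and 405, and it was 5.47 and 5.51 CPM in mice 367 and 335. Rpl26, its parent and a protein of the large ribosomal subunit, was 13.5 and 13.9 CPM in mice 394 and 405 and 287 to 917 CPM in the other 13 females. In KI male 136 Gm15772 was 189.9 CPM and Rpl26 13.3 CPM, in KI male 139 they were 92.3 and 237 CPM, and Rpl26 was 380 to 687 CPM in the other 5 males. A gene and its copy thus had opposite levels in single libraries. Rpl26 and Mrpl27 lie on the same chromosome, 11, but 25.7 Mb apart, and mice 394 and 136, with Rpl26 at 13.5 and 13.3 CPM, had 33.7 and 34% of Mrpl27-ps in the sum with Mrpl27. In mouse 405, with Rpl26 at 13.9 CPM, that share was 15.1%. In males Gm7993, Mrpl27-ps, Gm15772 and Gm4735 had the same calls in all 7 libraries, which means only that each was high in mice 136 and 139.

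Gm15459 and Gm2427 were both high in the cortex of mice 257, 259 and 329, and both were above the other A+ females in mice 375 and 380. They lie on chromosomes 5 and 1. Gm2427 also aligned to the opposite strand of Arhgef12 with 98.638% identity over 881 bases, and Arhgef12 lies 2.15 Mb from Hspa8, the parent of Gm15459, on chromosome 9. Since strand was not used, it does not separate reads of these genes, and reads that fit both equally well were not counted.

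The 9 members lie on 7 chromosomes and the parents on 8. Plcg2 lies on chromosome 8 (chr8:117498291-117635142), and 0 members and 0 parents are on that chromosome. Library depth, batch tag and the annotation were the only technical properties at hand, and since the reads were not analysed here, the placement of single reads on member or parent was not tested.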

How the data were processed

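Poly(A) RNA-seq libraries were sequenced as 150-base paired-end reads. According to the submitters' processing notes and methods, reads were checked with FastQC 0.11.7, trimmed with Trimmomatic 0.39, aligned with STAR 2.7.9a to GRCm38 and counted per gene with featureCounts 2.12.0 irrespective of strand, using uniquely mapped primary alignments. The authors deposited these counts without scaling. Reads that fit member and parent equally well are lost under this counting. The members, lists and rules were chosen with earlier results of these data known. CPM were calculated with TMM in edgeR 4.0.16 (R 4.3.3). Genes needed 10 or more counts in 3 or more libraries and were tested with the two-sided quasi-likelihood test at an FDR of 0.05, which was tested on simulated data. Parents were found with blastn 2.17.0 (word size 16). Named genes were members, parents, nearest expressed neighbours and up to 3 genes per member with the most equal calls. Symbols were matched by gene ID. Alternatives were DESeq2 1.42.0 size factors and Wald test, other filters, other limits for low and high calls, and leaving out each library. P-values set the difference between groups against a spread between single mice that is estimated partly from other genes. For the 4 members called without the count filter, they rest on KI mice 136 and 139, or on mouse 139 alone for Gm13394. These p-values are therefore not read as a difference between the groups.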

Additional observations from a re-analysis of the deposited data

Results flagged for a closer look

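Dixon's criterion was applied to 38 sets of values, each of 1 member in a group of 4 or 7 libraries, and 6 held a library that stood apart. Chance flags about 1 in 20 groups, but the members were picked for such values in the APP/PS1 libraries, so the number is a description and is not set against that rate. Mrpl27-ps was 5.18 CPM in A+ KI cortex of mouse 203, and the next highest of its group was 0.217 CPM. Gm15459 was 79.7 CPM in CD11b+ A+ KI mouse 335, against 6.39 CPM in the next. Gm13394 was 21.9 CPM in CD11b+ A+ WT mouse 331, against 0.551 CPM in the next, and 19.4 CPM in A+ KI mouse 335, against 0.322 CPM. In KI males, Gm13872 was 0.956 CPM in mouse 136 and 0 in the other 3, and Gm13394 was 15.9 CPM in mouse 139, against 0.149 CPM in the next. Mouse 335 thus appears for 2 members. Groups with 2 or more high libraries are not picked up by this criterion.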

How the results depend on the processing

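Among members that passed a count filter, the number called between KI and WT males was 0 with DESeq2 size factors, filterByExpr and DESeq2's Wald test and without any single library. Without the count filter, where 10.4% of all genes were called, it was 4, and it was 4 to 5 when each library was also left out in turn, with the fifth being Gm13872 without KI mouse 104. Leaving out the count filter and KI mouse 139 turned the log2FC of Gm13394 to -0.97. The number of members with the near all-or-none pattern depended on the limits. With a limit of 2% for low it was 2 in cortex (4 before), 0 in CD11b+ females (3 before) and 0 in males (2 before), and with 50% for high it was 2, 1 and 1. With 10% for low it was 6 in CD11b+ females. Leaving out 1 male gave 0 to 2. Over all genes, the number with the pattern was 7, 10 and 1 with 2% for low, 13, 11 and 3 with 50% for high, against 21, 33 and 9, and it was 103 in CD11b+ females and 29 in males with 10% for low. Without 1 male it was 2 to 10, the lowest being without KI mouse 139. The counts of members whose groups did not overlap stayed within 1.5 times under each library left out, as long as the members were those that passed the filter with all libraries. With the filter reapplied, an alternative chosen after seeing the data, the count in cortex (2 before) was 1 to 3, with 1 without mouse 259 or 329, where Gm13872 no longer passed. Between A+ WT and A- WT microglia (4 before) it was 2 to 4, with 2 without mouse 331 or 380, and between A+ KI and A+ WT microglia (3 before) 2 to 3. The fixed limits and the reads lost to equal matches limit what low counts show. No paired analysis was possible because the groups compared share fewer than 2 mouse numbers.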
